A study of Homo sapiens with 12 samples.

Results

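The genes described here encode the machinery that brings proteins into mitochondria. They were chosen by name from the deposited gene table. A row was taken if it was marked protein coding and its symbol began with TIMM or TOMM and a number, or was PAM16, GRPEL1, GRPEL2, PMPCA, PMPCB or SAMM50. This gave 31 genes of the 36041 in the table, in 6 groups by role: 11 of the outer membrane, 6 small chaperones of the intermembrane space, 2 of the carrier translocase, 6 of the presequence translocase, 4 of the import motor and 2 of the processing peptidase. The outer membrane group includes TOMM34, although it encodes a cytosolic cochaperone. The rule reads symbols and gene type alone.

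Most mitochondrial proteins are encoded in the nucleus, made in the cytosol and imported afterwards. The TOM complex forms the entry pore of the outer membrane, and the SAM complex inserts barrel-shaped proteins there. Precursors that carry a cleavable presequence pass the TIM23 complex and are pulled into the matrix by a motor built around the chaperone mortalin, after which a heterodimeric peptidase removes the presequence. Carrier proteins of the inner membrane are instead escorted across the intermembrane space by small TIM chaperones and inserted by the TIM22 complex.

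RNA was sequenced from the human acute myeloid leukaemia lines MV411 (also written MV4-11) and MOLM13. The study asked how the kinase inhibitor SGI-7079 acts on transcription in leukaemia cells with a mutated FLT3 receptor. The 4 groups, with 3 libraries each, were MV411 with SGI-7079 at 10 nM for 24 h, MV411 with the solvent DMSO, MOLM13 with SGI-7079 at 10 nM for 24 h, and MOLM13 with DMSO. No source used here gives a time for the DMSO cells. Both lines, the DMSO groups included, carry an internal tandem duplication in FLT3, and each is a single established line. The libraries held 52352252 to 61862017 counts. Of 12 monocytic and myeloid marker genes 11, including CD33, MPO, LYZ, CSF1R and FLT3, were at 1 CPM (counts scaled to a common library size) or more in each group, and CD14 was not. Summed markers of T cells, erythroid cells, epithelium, fibroblasts and endothelium stayed under 1 CPM in every library. Some listed markers had no row: those present were 2 of 4 for T cells, 2 of 4 for erythroid cells and 1 of 3 for epithelium. The megakaryocyte genes ITGA2B and GP9 moved with treatment: they summed to 24.7 to 27.9 CPM with SGI-7079 and 10.97 to 12.45 CPM with DMSO in MV411, where ITGA2B alone reached 1 CPM. In MOLM13 they summed to 0.622 to 1.21 CPM with SGI-7079 and 1.81 to 2.23 CPM with DMSO, where ITGA2B was at 0. The 12 monocytic and myeloid markers summed to 3874 to 3976 CPM with SGI-7079 and 3424 to 3595 CPM with DMSO in MV411, and to 2560 to 2666 CPM with SGI-7079 and 2019 to 2079 CPM with DMSO in MOLM13. The part of these markers in the results was not tested.

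SGI-7079 was accompanied by lower RNA of most import genes in both lines. Each library was scaled to its effective size, and a gene is said to have fallen or risen where its p-value, adjusted over all genes tested, was under 0.05. Of the 31 genes 30 could be tested; TOMM20L, a relative of TOMM20, was filtered out at 0 to 11 counts per library. In MV411, 24 of the 30 fell, where 24.3% of the 21438 genes tested fell, and 2 rose, where 27.2% of all genes rose. In MOLM13, 25 of the 30 fell, against 23.6% of all genes, and 0 rose by edgeR's test, by DESeq2 or by limma, against 23.2% of all genes. No import gene rose in MOLM13 at an unadjusted p under 0.05 either. The median log2 fold change of the 30 was -0.65 in MV411 and -0.42 in MOLM13, while the median over all genes tested was 0.11 in MV411 and 0.05 in MOLM13. Decreases past 2-fold were found for 8 import genes in MV411, against 6.08% of all genes, and for 2 in MOLM13, against 3.44%. The import genes are protein coding, while the genes tested include non-coding ones. Of the 13967 protein-coding genes tested, 4781 fell and 4246 rose in MV411, with a median of 0.006. In MOLM13, 4802 of these fell and 3462 rose, with a median of -0.05. Decreases past 2-fold were found for 1044 of these in MV411 and 624 in MOLM13.

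The same 23 genes fell in both lines, which is 76.7% of those tested, against 18.5% of all genes tested, non-coding ones included. TOMM20 and TIMM10B fell in MOLM13 only by the threshold, PAM16 in MV411 only, and TIMM9 and TIMM23B passed it in neither. The PAM16 value in MV411 turned to an increase once the counts of an overlapping gene were added, as given below. TOMM7 and PMPCB rose in MV411. The summed import genes took 0.160% ± 0.001 of counts with SGI-7079 and 0.213% ± 0.003 with DMSO in MV411. In MOLM13 they took 0.187% ± 0.002 with SGI-7079 and 0.236% ± 0.002 with DMSO (SD, n = 3 per group). No treated library reached the share of any DMSO library of its line. The share of counts in the 2 mitochondrial ribosomal RNAs moved the other way, at 0.815% to 0.867% with SGI-7079 and 0.398% to 0.410% with DMSO in MV411, and 0.917% to 0.954% with SGI-7079 and 0.516% to 0.544% with DMSO in MOLM13. Its part in the results was not tested. In these bulk samples fewer cells of a type and less RNA per cell cannot be told apart.

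**Figure D1:**
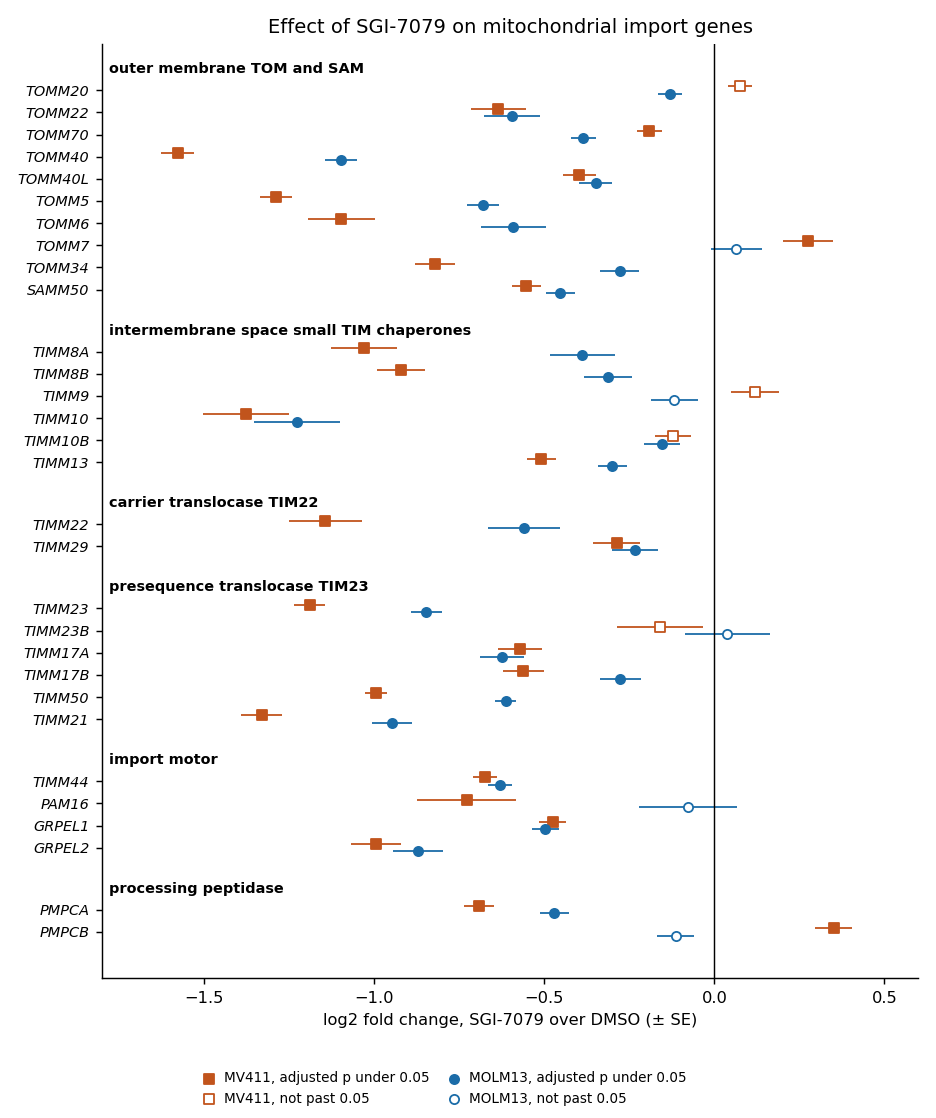
Log2 fold change of each tested import gene, SGI-7079 over DMSO, with its standard error, in MV411 (squares) and MOLM13 (circles), grouped by role; filled symbols passed an adjusted p of 0.05. Most filled symbols lie left of 0, with TOMM40 furthest left in MV411 at -1.58, and the filled squares of TOMM7 and PMPCB lie right of it.

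In the outer membrane group, 8 of 10 tested genes fell and 1 rose in MV411, and 9 fell and 0 rose in MOLM13. TOMM40 (ENSG00000130204, chromosome 19, 44890569 to 44903689; positions are those of the table, hg38) encodes the channel of the TOM complex. TOMM40 had 80.5, 79.3 and 74.0 CPM in MV411 with SGI-7079, against 235, 223 and 241 CPM in MV411 with DMSO. In MOLM13, TOMM40 had 83.1, 88.7 and 94.3 CPM with SGI-7079, against 189, 188 and 192 CPM with DMSO. The treated and DMSO libraries stood well apart in both lines. TOMM40 fell by 66.5% in MV411, with a log2 fold change of -1.58 ± 0.05 (SE; adjusted p = 8e-12), and it fell by 53.3% in MOLM13, with -1.10 ± 0.05 (adjusted p = 5.5e-10). TOMM5 (ENSG00000175768, chromosome 9, 37582646 to 37592604) encodes a small TOM subunit. TOMM5 had 20.1, 22.2 and 21.3 CPM in MV411 with SGI-7079, against 53.1, 51.5 and 50.6 CPM in MV411 with DMSO. In MOLM13, TOMM5 had 42.5, 41.2 and 42.6 CPM with SGI-7079, against 70.1, 65.4 and 66.8 CPM with DMSO. Again the groups did not overlap, with log2 fold changes of -1.29 ± 0.05 in MV411 (adjusted p = 5.18e-11) and -0.68 ± 0.05 in MOLM13 (adjusted p = 4.25e-08). An unnamed gene on the same strand shares 6229 bases with TOMM5, so its count is less certain than that of TOMM40.

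TOMM34 (ENSG00000025772, chromosome 20, 44942130 to 44960397) encodes a cytosolic cochaperone that holds precursors before import. TOMM34 had 34.3, 34.2 and 35.3 CPM in MV411 with SGI-7079, against 59.7, 58.2 and 65.3 CPM in MV411 with DMSO. In MOLM13, TOMM34 had 33.6, 29.4 and 32.5 CPM with SGI-7079, against 39.5, 37.5 and 38.9 CPM with DMSO. The decrease was seen in every treated library, at -0.82 ± 0.06 in log2 in MV411 (adjusted p = 4.05e-08) and -0.28 ± 0.06 in MOLM13 (adjusted p = 0.00137). PABPC1L, on the opposite strand, shares 16823 of the 18268 bases of TOMM34, and no source used here says if counting took account of strand. TOMM40L (ENSG00000158882, chromosome 1, 161225939 to 161230744) encodes a second form of the channel. TOMM40L had 24.2, 24.0 and 22.3 CPM in MV411 with SGI-7079, against 30.7, 32.1 and 30.0 CPM in MV411 with DMSO. In MOLM13, TOMM40L had 45.3, 42.5 and 44.5 CPM with SGI-7079, against 56.6, 55.3 and 56.5 CPM with DMSO. Its groups were apart in both lines, by less than those of TOMM40: the log2 fold changes were -0.40 ± 0.05 in MV411 (adjusted p = 1.26e-05) and -0.35 ± 0.05 in MOLM13 (adjusted p = 4.43e-05). TOMM20 (ENSG00000173726, chromosome 1, 235109341 to 235128837) encodes the receptor that binds presequences. TOMM20 had 332, 333 and 342 CPM in MV411 with SGI-7079, against 333, 305 and 317 CPM in MV411 with DMSO. In MOLM13, TOMM20 had 503, 479 and 508 CPM with SGI-7079, against 556, 536 and 539.8 CPM with DMSO. Treated and DMSO libraries overlapped in MV411, with a log2 fold change of 0.08 ± 0.04 (adjusted p = 0.0907), and did not in MOLM13, at -0.13 ± 0.04 (adjusted p = 0.00737). The MOLM13 call of TOMM20 was lost with upper-quartile scaling, at -0.028 (adjusted p = 0.575), and with library totals alone, at -0.045 (adjusted p = 0.288). In MV411 TOMM20 was instead counted as risen by DESeq2, at 0.08 (adjusted p = 0.032), with upper-quartile scaling, at 0.17 (adjusted p = 0.0013), with library totals alone, at 0.19 (adjusted p = 0.000275), and by limma on the deposited FPKM, at 0.19 (adjusted p = 0.000461). Its MOLM13 value on the FPKM was -0.044 (adjusted p = 0.297).

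The remaining outer membrane genes were split. TOMM22, the central receptor of the complex, fell in both lines, at -0.64 in log2 in MV411 and -0.59 in MOLM13. TOMM6, another small subunit, fell at -1.10 in MV411 and -0.59 in MOLM13; its whole length lies within a gene on the same strand that the table lists without a symbol. SAMM50, the core of the SAM complex, fell at -0.55 in MV411 and -0.45 in MOLM13. PNPLA3, on the same strand, shares 9047 bases with SAMM50. TOMM70, the receptor for carrier precursors, fell at -0.19 in MV411 and -0.39 in MOLM13. The MV411 call of TOMM70 was lost with library totals alone (-0.080, adjusted p = 0.0666) and by limma on the FPKM (-0.082, adjusted p = 0.0551). TOMM7, a small subunit that in yeast loosens the TOM complex, is described further because it was 1 of the 2 genes that rose, a choice made after its values were seen. TOMM7 had 26.6, 25.2 and 28.9 CPM in MV411 with SGI-7079, against 22.6, 21.6 and 22.5 CPM in MV411 with DMSO. In MOLM13, TOMM7 had 28.8, 28.3 and 25.6 CPM with SGI-7079, against 28.3, 26.2 and 24.5 CPM with DMSO. The groups were apart in MV411 and overlapped in MOLM13. TOMM7 rose by 0.27 ± 0.07 in log2 in MV411 (adjusted p = 0.00675), and its value in MOLM13 was 0.06 ± 0.07 (adjusted p = 0.52). Without MV411 DMSO replicate 1, MV411 DMSO replicate 2 or MV411 SGI-7079 replicate 1, that call was lost, and the adjusted p reached 0.102.

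**Figure D2:**
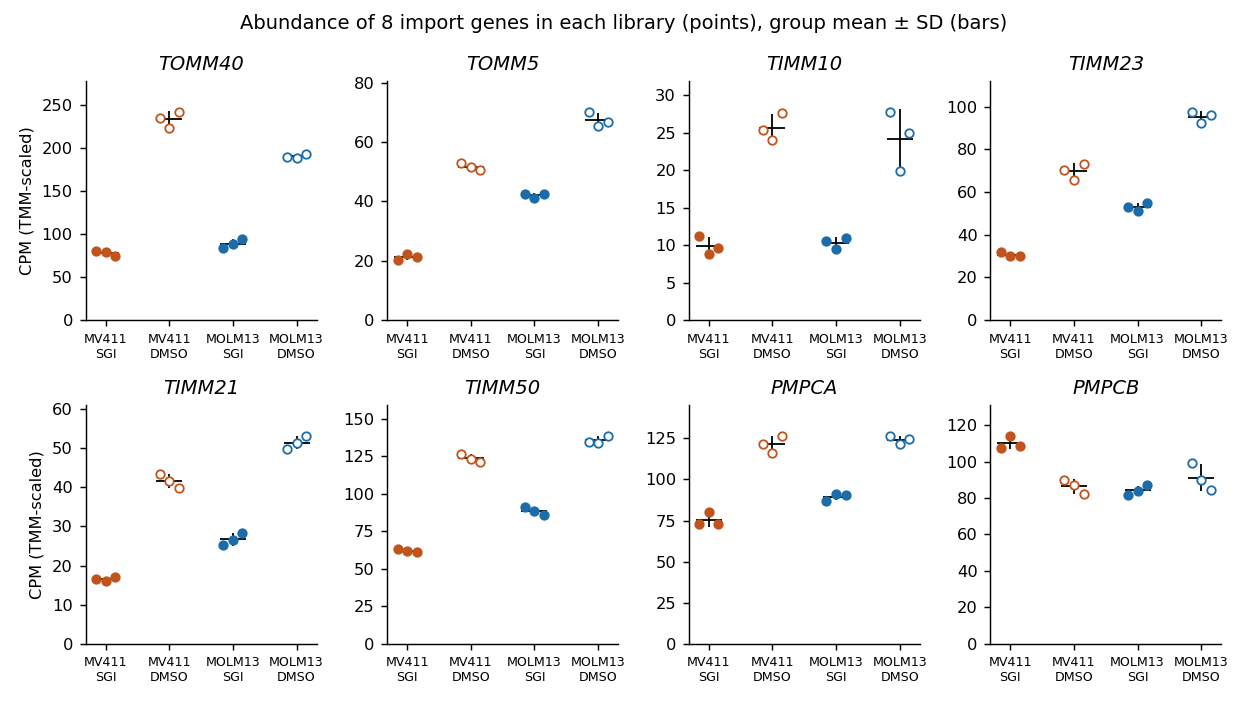
CPM of 8 import genes in each of the 12 libraries (points; filled for SGI-7079, open for DMSO) with the group mean and SD (bars), each axis from 0. For TOMM40 the treated MV411 libraries lie at 74.0 to 80.5 CPM and the DMSO ones at 223 to 241 CPM, and PMPCB is the panel where the treated MV411 libraries lie above the DMSO ones.

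The promoter of TOMM40 is shown because this gene had the deepest decrease in MV411, and the motifs searched were those of factors known from mitochondrial or stress genes. The sequences come from RefSeq (GRCh38.p14), 250 bases before to 50 bases after the annotated start, written 5′ to 3′ along the gene, with motif matches in capitals. For TOMM40 that start lies 685 bases inside the start of the deposited gene, which begins further upstream.

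TOMM40 promoter, chr19:44891004-44891303, plus strand: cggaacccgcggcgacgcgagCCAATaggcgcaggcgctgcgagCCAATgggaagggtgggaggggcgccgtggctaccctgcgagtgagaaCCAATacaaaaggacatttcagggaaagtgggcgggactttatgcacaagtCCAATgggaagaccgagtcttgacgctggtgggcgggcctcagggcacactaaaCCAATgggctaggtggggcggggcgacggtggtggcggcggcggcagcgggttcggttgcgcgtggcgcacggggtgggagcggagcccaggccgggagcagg

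TOMM40 holds 5 copies of CCAAT, the motif of NF-Y, at 229, 206, 158, 107 and 53 bases before the start. The promoter of TIMM17A, a gene with a smaller decrease in both lines, also holds 5. Whether the number of copies goes with the fold change was not tested. Of the 31 genes 28 had a promoter entry, and TOMM5, TIMM8B and GRPEL1 had none. Both strands were searched, and no motif searched contains another. CCAAT was in 11 of the 28 promoters (39.3%) and in 34.6% of all 35116 promoters of the table. CCGGAAG, the motif of ETS factors such as GABPA, was in 13 (46.4%), against 10.3% of all. GCATGCGC, a form of the NRF1 motif, was in 4 (14.3%), against 3.05%. CACGTG, the E-box bound by MYC and related factors, was in 3 (10.7%), against 7.26%, and TGATGNAA, the ATF4 composite element, in 2 (7.14%), against 3.62%. The 35116 promoters were not limited by gene type or expression, while the 28 belong to protein-coding genes. What this adds to the gaps in share was not tested. A match is a description of the letters and not of binding, which was not measured.

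In the small TIM group, 4 of 6 genes fell in MV411 and 5 in MOLM13, and 0 rose in either line by edgeR's test, also at an unadjusted p under 0.05, or by DESeq2. TIMM10 (ENSG00000134809, chromosome 11, 57528464 to 57530803) encodes a subunit of the hexameric chaperone that it forms with TIMM9. TIMM10 had 11.2, 8.75 and 9.67 CPM in MV411 with SGI-7079, against 25.4, 24.0 and 27.6 CPM in MV411 with DMSO. In MOLM13, TIMM10 had 10.5, 9.48 and 11.0 CPM with SGI-7079, against 27.7, 19.9 and 24.9 CPM with DMSO. All treated libraries were below all DMSO libraries of their line. TIMM10 changed by -1.38 ± 0.13 in log2 in MV411 (SE; adjusted p = 5.7e-07) and by -1.23 ± 0.13 in MOLM13 (adjusted p = 2.5e-06), where it was the import gene with the deepest decrease. Its promoter, shown for that reason, holds 2 copies of CCGGAAG and 1 of CACGTG, which lies across the start.

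TIMM10 promoter, chr11:57530705-57531004, minus strand: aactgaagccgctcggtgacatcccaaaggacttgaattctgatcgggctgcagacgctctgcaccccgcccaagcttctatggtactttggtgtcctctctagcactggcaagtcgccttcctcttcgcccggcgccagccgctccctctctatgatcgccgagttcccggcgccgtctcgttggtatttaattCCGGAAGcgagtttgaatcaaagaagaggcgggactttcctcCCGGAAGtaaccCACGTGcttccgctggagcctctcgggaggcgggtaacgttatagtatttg

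TIMM9, the partner of TIMM10, passed the threshold in neither line by this test. TIMM9 was at 0.12 ± 0.07 in MV411 (adjusted p = 0.176) and -0.12 ± 0.07 in MOLM13 (adjusted p = 0.19), and its treated and DMSO libraries overlapped in both lines. The call of TIMM9 depended on scaling: it was counted as risen in MV411 with upper-quartile scaling, with library totals alone and on the deposited FPKM. An unnamed gene on the opposite strand shares 18631 of the 19037 bases of TIMM9, and strand use in counting is not known. TIMM8A (ENSG00000126953, chromosome X, 101345661 to 101348742), a chaperone gene mutated in a syndrome of deafness and dystonia, partners TIMM13. TIMM8A had 9.16, 10.6 and 8.47 CPM in MV411 with SGI-7079, against 18.3, 20.4 and 19.0 CPM in MV411 with DMSO. In MOLM13, TIMM8A had 20.4, 21.2 and 17.6 CPM with SGI-7079, against 25.3, 27.0 and 25.2 CPM with DMSO. Treated libraries were lower throughout, with log2 fold changes of -1.03 ± 0.10 in MV411 (adjusted p = 7.18e-07) and -0.39 ± 0.09 in MOLM13 (adjusted p = 0.00395). TIMM8B (ENSG00000150779, chromosome 11, 112084800 to 112086798) is its closest relative. TIMM8B had 11.7, 10.8 and 11.9 CPM in MV411 with SGI-7079, against 22.4, 21.6 and 21.3 CPM in MV411 with DMSO. In MOLM13, TIMM8B had 18.8, 16.7 and 17.3 CPM with SGI-7079, against 21.6, 21.6 and 22.2 CPM with DMSO. The TIMM8B groups were also apart, at -0.92 ± 0.07 in MV411 (adjusted p = 1.1e-07) and -0.31 ± 0.07 in MOLM13 (adjusted p = 0.00247). TIMM13 fell at -0.51 in MV411 and -0.30 in MOLM13. TIMM10B, a relative of TIMM10 that binds the TIM22 complex, fell at -0.15 in MOLM13 (adjusted p = 0.0281), and its value in MV411 was -0.12 (adjusted p = 0.0731). Its MOLM13 call was lost with upper-quartile scaling (-0.051, adjusted p = 0.484), library totals alone (-0.067, adjusted p = 0.324), limma on the FPKM (-0.067, adjusted p = 0.268) and no count filter (-0.15, adjusted p = 0.0549). Its MV411 value passed with no count filter (-0.17, adjusted p = 0.0223) and with MV411 fitted alone (-0.19, adjusted p = 0.0165). Leaving out 1 library turned the TIMM10B call in MV411 in 9 of 12 cases and in MOLM13 in 4 of 12, and an unnamed gene on the same strand covers all of its length.

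Both genes of the TIM22 complex fell in both lines. TIMM22 (ENSG00000177370, chromosome 17, 997129 to 1003671) encodes its channel. TIMM22 had 11.6, 11.6 and 8.52 CPM in MV411 with SGI-7079, against 24.0, 23.4 and 22.7 CPM in MV411 with DMSO. In MOLM13, TIMM22 had 16.0, 17.6 and 18.7 CPM with SGI-7079, against 25.8, 26.6 and 24.8 CPM with DMSO. No treated library overlapped a DMSO library of its line. TIMM22 changed by -1.14 ± 0.11 in log2 in MV411 (adjusted p = 7.2e-07) and by -0.56 ± 0.11 in MOLM13 (adjusted p = 0.000589). TIMM29, a further subunit that links TIM22 to the TOM complex, fell at -0.29 in MV411 and -0.23 in MOLM13. In MOLM13 the TIMM29 call was lost with upper-quartile scaling (-0.13, adjusted p = 0.15), with library totals alone (-0.15, adjusted p = 0.0825), and in 2 of the 12 fits that left out 1 library (adjusted p up to 0.069).

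Of the 6 genes of the TIM23 complex, 5 fell in both lines, and TIMM23B passed the threshold in neither. TIMM23 (ENSG00000265354, chromosome 10, 45972489 to 46003742) encodes the core subunit of the presequence translocase. TIMM23 had 31.7, 30.0 and 30.1 CPM in MV411 with SGI-7079, against 70.3, 65.7 and 73.2 CPM in MV411 with DMSO. In MOLM13, TIMM23 had 53.1, 51.3 and 54.8 CPM with SGI-7079, against 97.4, 92.6 and 96.1 CPM with DMSO. Treated libraries lay well below the DMSO libraries in each line. TIMM23 changed by -1.19 ± 0.05 in MV411 (adjusted p = 8.9e-11) and by -0.85 ± 0.05 in MOLM13 (adjusted p = 4.29e-09). TIMM23B (ENSG00000204152, chromosome 10, 49942049 to 49974850) is a nearly identical copy on the same chromosome. TIMM23B had 11.0, 8.13 and 11.1 CPM in MV411 with SGI-7079, against 10.2, 10.8 and 12.8 CPM in MV411 with DMSO. In MOLM13, TIMM23B had 18.2, 18.0 and 20.3 CPM with SGI-7079, against 17.9, 19.6 and 17.6 CPM with DMSO. Treated and DMSO libraries of TIMM23B were mixed in both lines, with log2 fold changes of -0.16 ± 0.13 in MV411 (adjusted p = 0.326) and 0.04 ± 0.12 in MOLM13 (adjusted p = 0.847). Reads from the copies are hard to separate, and TIMM23B also lies within the read-through gene TIMM23B-AGAP6. With all 3 summed, the log2 fold change was -0.92 in MV411 (adjusted p = 5.46e-09) and -0.65 in MOLM13 (adjusted p = 2.44e-07).

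The promoters of the pair are given together to show how close the copies are. Over 294 aligned bases 289 were identical (98.3%). TIMM23 has a match to CCGGAAG before the start and again after it, on opposite strands. In TIMM23B both matches lie next to each other before the start.

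TIMM23 promoter, chr10:45972239-45972538, plus strand: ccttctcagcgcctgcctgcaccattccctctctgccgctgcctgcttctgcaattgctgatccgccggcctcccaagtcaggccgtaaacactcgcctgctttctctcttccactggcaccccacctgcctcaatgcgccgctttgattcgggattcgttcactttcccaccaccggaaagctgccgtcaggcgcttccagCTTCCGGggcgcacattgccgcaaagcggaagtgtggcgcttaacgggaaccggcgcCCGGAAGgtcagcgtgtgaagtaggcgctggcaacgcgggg
TIMM23B promoter, chr10:49941803-49942102, plus strand: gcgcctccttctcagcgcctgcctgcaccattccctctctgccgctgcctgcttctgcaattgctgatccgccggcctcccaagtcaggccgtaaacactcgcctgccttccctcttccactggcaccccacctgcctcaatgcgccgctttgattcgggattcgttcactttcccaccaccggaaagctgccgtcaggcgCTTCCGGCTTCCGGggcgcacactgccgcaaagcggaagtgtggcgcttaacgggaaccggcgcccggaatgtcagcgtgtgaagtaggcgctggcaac

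TIMM21 (ENSG00000075336, chromosome 18, 74148523 to 74160531) encodes a subunit that connects the translocase with the TOM complex and with assembling respiratory chain proteins. TIMM21 had 16.5, 16.0 and 17.04 CPM in MV411 with SGI-7079, against 43.4, 41.6 and 39.7 CPM in MV411 with DMSO. In MOLM13, TIMM21 had 25.2, 26.4 and 28.4 CPM with SGI-7079, against 49.8, 51.4 and 53.2 CPM with DMSO. The separation between treated and DMSO libraries was complete in each line. TIMM21 changed by -1.33 ± 0.06 in MV411 (adjusted p = 3.18e-10) and by -0.95 ± 0.06 in MOLM13 (adjusted p = 1.55e-08). TIMM50 (ENSG00000105197, chromosome 19, 39480412 to 39493785) encodes the receptor of the complex. TIMM50 had 63.0, 62.1 and 61.1 CPM in MV411 with SGI-7079, against 127, 123 and 121 CPM in MV411 with DMSO. In MOLM13, TIMM50 had 91.3, 88.6 and 86.1 CPM with SGI-7079, against 134, 134 and 139 CPM with DMSO. Its libraries were tightly grouped, and the groups did not touch. TIMM50 changed by -0.996 ± 0.03 in MV411 (adjusted p = 1.37e-11) and by -0.61 ± 0.03 in MOLM13 (adjusted p = 2.9e-09).

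TIMM17A (ENSG00000134375, chromosome 1, 201955503 to 201970664) and TIMM17B (ENSG00000126768, chromosome X, 48893447 to 48898143) encode alternative channel subunits. TIMM17A had 41.9, 43.7 and 41.5 CPM in MV411 with SGI-7079, against 63.1, 64.4 and 61.1 CPM in MV411 with DMSO. In MOLM13, TIMM17A had 60.2, 73.6 and 66.9 CPM with SGI-7079, against 95.7, 106 and 107 CPM with DMSO. TIMM17A was lower in every treated library, at -0.57 ± 0.06 in MV411 (adjusted p = 4.87e-06) and -0.62 ± 0.06 in MOLM13 (adjusted p = 2.39e-06). TIMM17B had 19.1, 18.7 and 17.4 CPM in MV411 with SGI-7079, against 27.8, 26.4 and 27.2 CPM in MV411 with DMSO. In MOLM13, TIMM17B had 21.4, 21.0 and 20.6 CPM with SGI-7079, against 25.9, 25.6 and 24.7 CPM with DMSO. TIMM17B groups were also apart, with -0.56 ± 0.06 in MV411 (adjusted p = 2.55e-06) and -0.28 ± 0.06 in MOLM13 (adjusted p = 0.00167). The gene PQBP1 lies opposite TIMM17B along its whole length, and no source used here says if counting took account of strand.

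In the import motor group, all 4 genes passed the threshold as fallen in MV411 and 3 in MOLM13. The MV411 call of PAM16 is unsafe, as given below. GRPEL2 (ENSG00000164284, chromosome 5, 149345430 to 149354583) and GRPEL1 (ENSG00000109519, chromosome 4, 7058671 to 7068085) encode nucleotide exchange factors of mortalin. GRPEL2 had 11.3, 11.8 and 11.9 CPM in MV411 with SGI-7079, against 23.5, 23.2 and 23.1 CPM in MV411 with DMSO. In MOLM13, GRPEL2 had 15.2, 14.2 and 16.7 CPM with SGI-7079, against 28.0, 26.8 and 29.6 CPM with DMSO. The GRPEL2 groups were wide apart, at -0.995 ± 0.07 in MV411 (adjusted p = 6.29e-08) and -0.87 ± 0.07 in MOLM13 (adjusted p = 3.35e-07). GRPEL2-AS1, on the opposite strand, shares 6468 bases with GRPEL2. GRPEL1 had 75.8, 70.2 and 72.9 CPM in MV411 with SGI-7079, against 102, 104 and 98.3 CPM in MV411 with DMSO. In MOLM13, GRPEL1 had 53.4, 50.5 and 54.5 CPM with SGI-7079, against 73.7, 74.5 and 75.2 CPM with DMSO. GRPEL1 was lower in all treated libraries, with similar log2 fold changes of -0.48 ± 0.04 in MV411 (adjusted p = 2.02e-07) and -0.50 ± 0.04 in MOLM13 (adjusted p = 2.19e-07). TIMM44, which tethers the motor to the translocase, fell at -0.67 ± 0.03 in MV411 and -0.63 ± 0.03 in MOLM13.

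PAM16, a regulatory subunit of the motor, is given in full because its count is unsafe, a choice made after its values were seen. PAM16 had 16.1, 14.3 and 13.2 CPM in MV411 with SGI-7079, against 25.2, 25.5 and 21.6 CPM in MV411 with DMSO. In MOLM13, PAM16 had 31.2, 23.5 and 31.9 CPM with SGI-7079, against 25.2, 37.0 and 29.1 CPM with DMSO. The groups were apart in MV411 and overlapped in MOLM13, with -0.73 ± 0.15 in MV411 (adjusted p = 0.000805) and -0.08 ± 0.14 in MOLM13 (adjusted p = 0.706). The read-through gene CORO7-PAM16 covers 11071 bases of PAM16 on the same strand. It had 2866, 2270 and 1290 counts in MV411 with SGI-7079, against 202, 27 and 599 counts in MV411 with DMSO. In MOLM13, CORO7-PAM16 had 155, 2211 and 120 counts with SGI-7079, against 1549, 58 and 1099 counts with DMSO. Its replicates thus differed many times over within a group. With the pair summed, the MV411 value turned to 0.78 (adjusted p = 0.0095), so no direction can be given for PAM16.

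The processing peptidase subunits parted in MV411. PMPCA (ENSG00000165688, chromosome 9, 136410630 to 136427791) encodes the subunit that recognises presequences. PMPCA had 72.9, 80.0 and 72.9 CPM in MV411 with SGI-7079, against 122, 116 and 126 CPM in MV411 with DMSO. In MOLM13, PMPCA had 86.9, 90.9 and 90.8 CPM with SGI-7079, against 126, 122 and 125 CPM with DMSO. Treated libraries were below DMSO libraries in both lines, at -0.69 ± 0.04 in MV411 (adjusted p = 9.7e-09) and -0.47 ± 0.04 in MOLM13 (adjusted p = 7.03e-07). PMPCB (ENSG00000105819, chromosome 7, 103297407 to 103331818) encodes the catalytic subunit. PMPCB had 108, 114 and 109 CPM in MV411 with SGI-7079, against 90.02, 86.9 and 82.0 CPM in MV411 with DMSO. In MOLM13, PMPCB had 81.8, 83.8 and 87.0 CPM with SGI-7079, against 99.0, 89.95 and 84.2 CPM with DMSO. In MV411 each treated library was above each DMSO library, whereas the MOLM13 groups overlapped. PMPCB rose by 0.35 ± 0.05 in log2 in MV411 (adjusted p = 8.75e-05), and its value in MOLM13 was -0.11 ± 0.05 (adjusted p = 0.108). DNAJC2, on the opposite strand, shares 19530 bases with PMPCB, and PSMC2, on the same strand, shares 3249. The PMPCB promoter is shown as that of a gene that rose; it holds 1 match to CCGGAAG, 1 match to CCAAT and, near its far end, 1 match to TGATGNAA on the other strand.

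PMPCB promoter, chr7:103297185-103297484, plus strand: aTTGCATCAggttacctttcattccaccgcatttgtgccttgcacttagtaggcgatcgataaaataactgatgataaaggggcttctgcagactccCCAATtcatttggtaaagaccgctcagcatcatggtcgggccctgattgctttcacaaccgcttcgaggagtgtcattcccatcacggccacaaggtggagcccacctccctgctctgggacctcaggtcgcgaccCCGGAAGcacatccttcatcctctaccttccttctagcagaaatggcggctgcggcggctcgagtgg

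The effect of SGI-7079 differed between the lines for 17 of the 30 genes. The test compared the log2 fold changes directly, MV411 minus MOLM13, and 22 of 30 differences were negative, with a median of -0.17. Over all genes tested, 11022 of 21438 differences were negative, with a median of -0.014. For 14 import genes the fold change was lower in MV411, where 11.8% of all genes tested were, and for 3 it was higher, where 8.85% were. Of the 13967 protein-coding genes tested, 2285 were lower and 1740 were higher. TOMM5 had the smallest adjusted p among the import genes, with -1.29 ± 0.05 in MV411 and -0.68 ± 0.05 in MOLM13, a difference of -0.61 ± 0.07 (adjusted p = 2.5e-05). TIMM50 differed by -0.38 ± 0.04 (adjusted p = 4.93e-05), TOMM40 by -0.48 ± 0.07 (adjusted p = 0.000186) and TOMM34 by -0.54 ± 0.08 (adjusted p = 0.000381). The 3 genes with a higher fold change in MV411 were PMPCB, at 0.46 ± 0.08 (adjusted p = 0.000715), TOMM20, at 0.21 ± 0.05 (adjusted p = 0.0092), and TOMM70, at 0.19 ± 0.05 (adjusted p = 0.0154). The calls of TOMM20 and TOMM70 were each lost in 8 of the 12 fits that left out 1 library, with adjusted p up to 0.188 for TOMM20 and 0.284 for TOMM70. The calls of TIMM13 and TIMM17B were lost without replicate 3 of MV411 with SGI-7079, and likewise without replicate 3 of MV411 with DMSO (adjusted p up to 0.0729 for TIMM13 and 0.0703 for TIMM17B). That of PMPCA was lost without MV411 SGI-7079 replicate 3 (adjusted p = 0.0521), and without that library 10 genes in place of 14 had a lower fold change in MV411. PAM16, counted among the 14, lost its call under the replicate block (adjusted p = 0.0607), by limma on the FPKM (0.0551), with no count filter (0.0501) and in 4 of the 12 fits that left out 1 library (up to 0.0945). The median difference of the import genes ranged from -0.31 to -0.11 over those 12 fits. The median over all genes moved too: without MOLM13 DMSO replicate 1 it was -0.10, where that of the import genes was -0.30. The difference of TIMM10 was -0.15 ± 0.18, with an approximate 95% interval of -0.50 to 0.20, so that its decrease was not shown to differ between the lines.

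Ratios of related genes within a library do not depend on how libraries are scaled. For 5 such pairs the log2 ratio of counts, with 0.5 added to each, was compared between treated and DMSO libraries by an exact two-sided permutation test within lines, over 400 regroupings, with p-values adjusted over the pairs. TOMM40 over TOMM40L averaged 1.73 ± 0.005 with SGI-7079 and 2.91 ± 0.11 with DMSO in MV411, and 1.01 ± 0.12 with SGI-7079 and 1.76 ± 0.01 with DMSO in MOLM13 (log2 ratio, SD, n = 3). The mean difference over the lines was -0.97 (adjusted p = 0.00833). PMPCA over PMPCB averaged -0.55 ± 0.03 with SGI-7079 and 0.49 ± 0.11 with DMSO in MV411, and 0.09 ± 0.03 with SGI-7079 and 0.45 ± 0.11 with DMSO in MOLM13. Here the mean difference was -0.70 (adjusted p = 0.00833), and in MV411 the treated libraries passed to the other side of an equal count. GRPEL1 over GRPEL2 averaged 2.64 ± 0.09 with SGI-7079 and 2.12 ± 0.04 with DMSO in MV411, and 1.78 ± 0.06 with SGI-7079 and 1.41 ± 0.07 with DMSO in MOLM13. Its mean difference was 0.45 (adjusted p = 0.00833).

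An unadjusted p of 0.005, reached by these 3 pairs, is the smallest that the exact test can give. The ratio of TIMM17A to TIMM17B differed by -0.35 in MOLM13 and by -0.01 in MV411, a mean of -0.18 that missed the threshold (exact permutation test, adjusted p = 0.075). TIMM8A over TIMM8B differed by -0.10 on average (adjusted p = 0.285), and its treated and DMSO libraries overlapped in both lines. A missed threshold does not show that these ratios were alike.

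**Figure D3:**
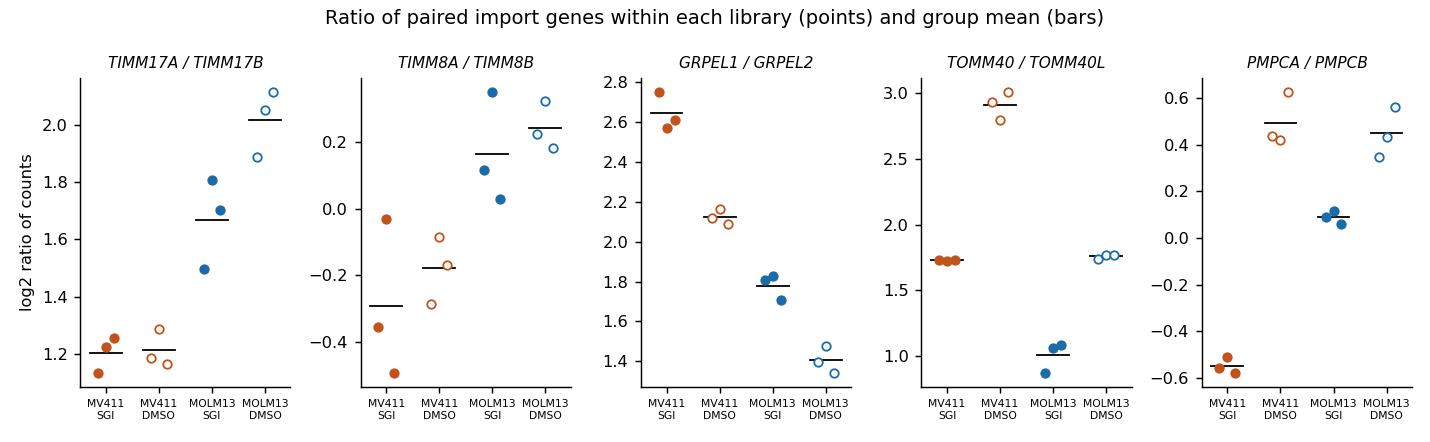
Log2 ratio of the counts of 5 pairs of related import genes in each library (points; filled for SGI-7079, open for DMSO), with the group mean as a bar; the vertical axes differ between panels and do not start at 0. The treated libraries lie below the DMSO libraries of their line for TOMM40 over TOMM40L and for PMPCA over PMPCB, and above them for GRPEL1 over GRPEL2.

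Without compound, the import genes differed widely in level. Levels between genes are compared in the deposited FPKM (fragments scaled to gene length and library size). The lengths that the authors used were not checked, and the order of the genes depends on them. In MOLM13 with DMSO, PMPCB averaged 4.70 FPKM and 91.1 CPM, and TIMM10 averaged 27.1 FPKM and 24.2 CPM. Under DMSO, TOMM6 was highest, at 140.3, 132 and 141 FPKM in MV411 and 179.8, 174 and 168 FPKM in MOLM13. TOMM20 came next, at 89.8, 82.7 and 84.4 FPKM in MV411 and 139.6, 137 and 137 FPKM in MOLM13. The libraries of these neighbours did not overlap in either line. TIMM23, TIMM13 and TOMM40 followed, with group means of 45.8 to 69.8 FPKM; in MOLM13 they were ordered without overlap, while in MV411 TOMM40 overlapped TIMM13, and TIMM13 overlapped TIMM23. The median gene had 13.3 FPKM in MV411 and 14.9 FPKM in MOLM13. TOMM20L was lowest, at 0, 0.114 and 0.258 FPKM in MV411 and 0.0433, 0.158 and 0.245 FPKM in MOLM13, and PMPCB was next to lowest in MOLM13. Of the 30 pairs of neighbours in the order of levels, the libraries overlapped for 14 in MV411 and 17 in MOLM13.

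**Figure D4:**
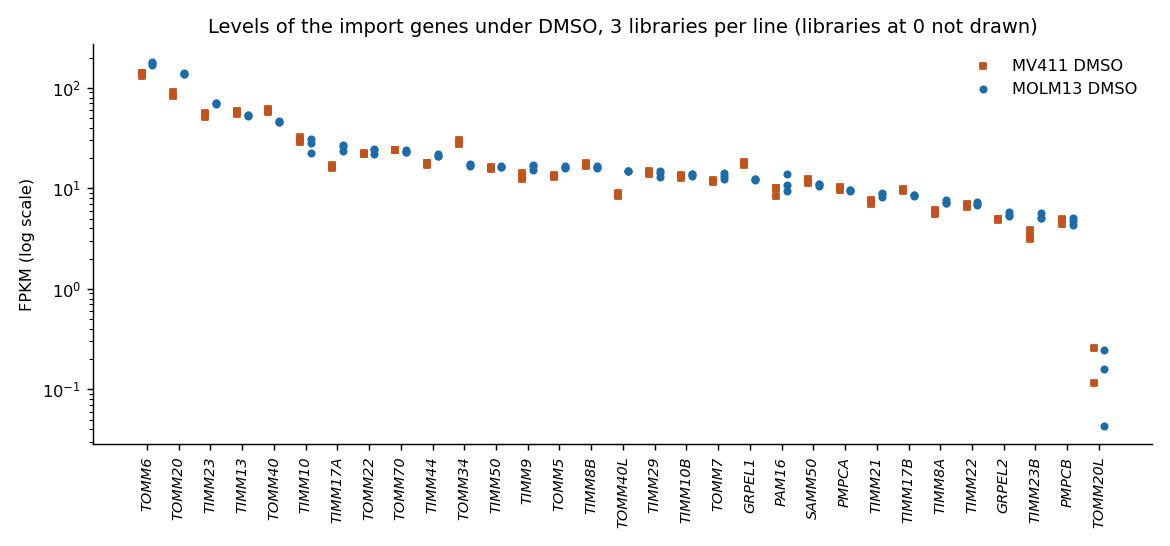
FPKM on a log scale of the 31 import genes in the 3 DMSO libraries of MV411 (squares) and of MOLM13 (circles), ordered by the mean in MOLM13; a library at 0 is not drawn. Levels run from TOMM6 at over 100 FPKM down to TOMM20L under 1 FPKM, and TOMM40L, TIMM17A and TOMM20 lie lower in MV411.

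Between the lines under DMSO, 14 of the 30 genes were lower in MV411 than in MOLM13, where 26.5% of all genes tested were lower, and 3 were higher, where 27.7% were. Of the 13967 protein-coding genes tested, 4695 were lower and 4602 were higher. The median log2 fold change of the 30, MV411 over MOLM13, was -0.16, and it was -0.077 with library totals alone and -0.074 on the deposited FPKM. The largest differences by the rule for named genes were lower levels of TOMM40L at -0.86 ± 0.05 (adjusted p = 4.21e-09), TOMM20 at -0.77 ± 0.04 (adjusted p = 4.36e-10), TIMM17A at -0.71 ± 0.06 (adjusted p = 4.18e-07) and TIMM23B at -0.70 ± 0.13 (adjusted p = 0.000309). The 3 genes higher in MV411 were TOMM34 at 0.66, GRPEL1 at 0.45 and TOMM40 at 0.29. For these 7 genes the DMSO libraries of the lines, given above, did not overlap, which adds little because the same libraries picked them. The DMSO libraries of TOMM22, TOMM70, TIMM10B, TIMM22 and TIMM17B did not overlap either. By edgeR's test their adjusted p was 0.0722, 0.286, 0.0568, 0.285 and 0.202 in that order, so these were not called. How often DMSO libraries did not overlap over all genes tested was not counted. With library totals alone, or on the deposited FPKM, 5 genes were higher in MV411 in place of 3.

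Further genes of protein import and of the handling of imported proteins were taken from a list of 28, all of which were tested. In MV411, 19 of these fell and 1 rose, with a median log2 fold change of -0.53, and in MOLM13 18 fell and 1 rose, with a median of -0.39. The gene that rose in both lines was OXA1L, an insertase of the inner membrane, at 0.47 ± 0.04 in MV411 (adjusted p = 7.28e-08) and 0.10 ± 0.04 in MOLM13 (adjusted p = 0.0332). The smallest adjusted p in both lines belonged to the same 4 genes. HSPE1, the mitochondrial cochaperonin, changed by -1.97 ± 0.05 in MV411 and -1.11 ± 0.05 in MOLM13. HSPD1, the chaperonin that folds imported proteins, changed by -1.13 ± 0.02 in MV411 and -0.98 ± 0.02 in MOLM13. HSPA9, which is mortalin, was at 262, 252 and 252 CPM in MV411 with SGI-7079, against 524, 517 and 514 CPM in MV411 with DMSO. In MOLM13, HSPA9 was at 369, 348 and 372 CPM with SGI-7079, against 646, 653 and 662 CPM with DMSO. The treated libraries of this motor chaperone were below the DMSO ones throughout, at -1.02 ± 0.03 in MV411 and -0.85 ± 0.03 in MOLM13. LONP1, a matrix protease, changed by -1.03 ± 0.04 in MV411 and -0.98 ± 0.04 in MOLM13.

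Other nuclear genes for mitochondrial proteins were counted in the same way. Of 78 mitochondrial ribosomal protein genes, 69 fell and 1 rose in each line, with a median log2 fold change of -0.46 in MV411 and -0.44 in MOLM13. Of 77 tested nuclear respiratory chain genes, 58 fell and 5 rose in MV411 and 57 fell and 2 rose in MOLM13, with medians of -0.48 in MV411 and -0.38 in MOLM13. No difference between these sets and the import genes was tested. The 31 import genes were spread over the genome, with 5 on chromosome 19 and 3 each on chromosomes 1 and 11.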

How the data were processed

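RNA of 12 libraries, 3 for each of 4 groups taken from the sample labels, was selected by poly(A) tail and sequenced as read pairs of 150 bases, per the labels' protocols. Nothing in the labels ties the replicates to separate cultures; the spread behind each p-value may therefore be partly technical. Per the submitters' processing notes, reads were handled on build hg38 with edgeR, DESeq2, StringTie 2.1.6, HISAT2 2.2.1 and cutadapt 1.9, listed without order, and the series' design text names featureCounts for counting. The library protocol marks strand, but strand use in counting, and the handling of reads that match several genes, are not given in the sources used here. Raw counts and FPKM stand side by side for each gene in the deposited table, per the file headers; the authors computed the FPKM. Total counts were 52352252 to 61862017 per library.

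The main test was edgeR's quasi-likelihood test (edgeR 4.0.16, R 4.3.3) with counts scaled by TMM, on the 21438 genes left by filterByExpr at a minimum count of 10. A single model had 1 mean per group, and p-values were adjusted over all genes tested by the Benjamini-Hochberg method. SE was taken as the size of the log2 fold change over the root of F, and approximate 95% intervals are 1.96 SE either side. Such intervals use the normal quantile and are narrower than edgeR's test implies. For PMPCB in MOLM13 the interval was -0.22 to -0.0068, which leaves out 0, while the unadjusted p of edgeR's test was 0.0575. CPM use TMM-scaled library sizes. Within groups, no pair of libraries agreed to within sampling noise: their chi-square was 8.68 to 12.8 for each degree of freedom. The test was checked on simulated counts, drawn as independent libraries with the spread fitted to these data. That check cannot show how the p-values fare if replicates are partly technical.

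Values of all libraries were given for the 6 import genes in each line with the largest change, the 4 with the smallest adjusted p of the difference between lines, the 4 with the largest difference between lines under DMSO (changes only at 5 CPM or more in 1 group) and the 5 pairs of related genes; TOMM7 and PAM16 were added. The import genes, lists and motifs were chosen with earlier results of these data known. Alternatives were DESeq2 1.42.0, upper-quartile scaling, library totals alone, no count filter, limma 3.58.1 on log2(FPKM + 0.1), a replicate block, each line fitted alone, and leaving out each library. Gene positions matched GENCODE 44 exactly for 25 of the 31 genes. One marker list is not reported here.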

Additional observations from a re-analysis of the deposited data

Results flagged for a closer look

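The effect of SGI-7079 differed between the lines, by the direct test of the difference with p adjusted over all genes tested, for 17 import genes. Values are differences of log2 fold changes, MV411 minus MOLM13. In the outer membrane group they were -0.48 for TOMM40, -0.61 for TOMM5, -0.51 for TOMM6, -0.54 for TOMM34, 0.21 for TOMM20 and 0.19 for TOMM70. Among the small TIM chaperones they were -0.64 for TIMM8A, -0.61 for TIMM8B and -0.21 for TIMM13 (lost without either of 2 libraries), and in the TIM22 complex -0.58 for TIMM22. In the TIM23 complex they were -0.34 for TIMM23, -0.28 for TIMM17B (lost without either of the same 2 libraries), -0.38 for TIMM50 and -0.38 for TIMM21. The motor gene PAM16 was at -0.65, which turned to 0.91 once CORO7-PAM16 was added to it (adjusted p = 0.0562); its call was also lost under the replicate block, on the FPKM, with no count filter and without any 1 of 4 libraries. For the peptidase the differences were -0.22 for PMPCA (lost without 1 library) and 0.46 for PMPCB. No other import gene passed this test.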

How the results depend on the processing

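Of the 120 gene results, the decreases described as deepest (TOMM40, TOMM5, TIMM10, TIMM21, TIMM23) kept direction and threshold under each alternative in both lines. Samples with the same replicate number did not deviate together (correlations -0.03 to 0.04), and the numbers are taken as names only. With the number as a replicate block, 24 genes fell and 2 rose in MV411 and 25 fell in MOLM13. The mean ratio differences were 0.45 (GRPEL1/GRPEL2), -0.97 (TOMM40/TOMM40L) and -0.70 (PMPCA/PMPCB), each with an adjusted p of 0.0521 by the exact paired test. The few sign changes of that test limit how small its unadjusted p can be. Scaling moved the level of all genes: library totals alone raised the median of all genes tested in MV411 by 0.11, and upper-quartile scaling raised it in MOLM13 by 0.10. With upper-quartile scaling, library totals and FPKM, the import genes' median was -0.56, -0.54 and -0.55 in MV411 and -0.32, -0.33 and -0.33 in MOLM13, and 4 genes rose in MV411 each time. Their median between lines under DMSO was -0.11, -0.077 and -0.074, with 5 genes higher in MV411 under the last 2. Fitted alone, MV411 gave a median of -0.72. With no count filter, the difference between lines had a median of -0.26 and 1 gene higher in MV411. Leaving out each library gave medians of -0.76 to -0.59 in MV411, -0.44 to -0.38 in MOLM13, -0.31 to -0.11 for the difference and -0.18 to -0.13 under DMSO; 1 to 2 genes rose in MV411, and 1 to 3 had a higher fold change in MV411. The cause of these shifts was not tested.

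Signs turned mostly near 0. PAM16 in MOLM13 became 0.026, 0.0062 and 0.016 under upper quartile, totals and FPKM, and with CORO7-PAM16 added, chosen after seeing the data, 0.78 in MV411 and 0.91 for the difference. With no filter the difference became -0.026 for TIMM10B, -0.0070 for TIMM17A and -0.038 for GRPEL1. Under DMSO, library totals and FPKM turned TOMM70 (0.037 and 0.038), TIMM29 (0.035 and 0.038) and PMPCB (0.0083 and 0.011); upper quartile, totals and FPKM turned PMPCA (0.018, 0.055 and 0.055) and TIMM8B (0.042, 0.080 and 0.081), DESeq2 turned TIMM8B (0.0046) and no filter TIMM13 (-0.00029). Without single libraries the DMSO comparison ranged from -0.059 to 0.0050 for PMPCA, -0.031 to 0.20 for TIMM10, -0.012 to 0.046 for TIMM13, -0.10 to 0.0057 for TIMM29 and -0.018 to 0.016 for TIMM8B. The SGI-7079 effect ranged from -0.19 to 0.090 for PAM16 and -0.012 to 0.091 for TIMM23B in MOLM13 and from -0.025 to 0.082 for TOMM20 in MV411. The difference ranged from -0.089 to 0.050 for GRPEL1, -0.074 to 0.063 for TIMM10B, -0.097 to 0.069 for TIMM17A and -0.22 to 0.020 for TOMM22.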
